A study of Mus musculus with 6 samples.

Results

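The genes described here are 9 enzymes that make or interconvert asparagine, glutamine, proline, alanine and the amino acids next to them, taken by symbol (Asns, Glul, Aldh18a1, Pycr1, Oat, Gpt2, Bcat1, Got1 and Pck2) from the 55487 genes of a table of estimated read counts. The cells were B16F10, a mouse melanoma cell line, labelled as wild type. One group, shCtr, carried a control shRNA and the other, shOSGEP, carried the shRNA numbered 2 by the study against Osgep. Each group held 3 polyA RNA libraries, numbered 1 to 3, from 3 independent infections, so the knockdown rests on 1 hairpin in 1 cell line. All 6 cultures were grown in DMEM with added glutamine, antibiotics and serum. OSGEP carries the catalytic activity of KEOPS, a complex that adds a threonylcarbamoyl group to the adenosine beside the anticodon of tRNAs that read codons starting with A. The comparison addressed how the RNA of these enzymes differed when Osgep was lowered.

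Cells build the non-essential amino acids from glutamine, glutamate and intermediates of glycolysis and the citric acid cycle. Asparagine synthetase (Asns) moves an amide nitrogen from glutamine to aspartate, and glutamine synthetase (Glul) makes glutamine from glutamate and ammonia. Proline is made from glutamate by pyrroline-5-carboxylate synthase (Aldh18a1) and a pyrroline-5-carboxylate reductase (Pycr1), while ornithine aminotransferase (Oat) connects ornithine to the same intermediate. Gpt2, Got1 and Bcat1 are transaminases for alanine, aspartate and branched-chain amino acids, and Pck2 is the mitochondrial phosphoenolpyruvate carboxykinase. Several of these genes, Asns above all, are textbook targets of the stress-response factor ATF4, which binds composite C/EBP-ATF sites in their promoters.

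Because such sites are short, the promoter windows of the 9 genes could be read directly. RefSeq start sites on GRCm38.p6 gave 10 windows of 300 bases for the 9 genes, from 250 bases before the start to 50 after it, and the core TGATGNAA was searched on both strands. It was found in the windows of 4 of the 9 genes, against 3.97% of all 32851 windows of the same length and 4.51% of the 27025 gene symbols they belong to. The matches are shown with 10 bases on either side, 5′ to 3′ on the strand of the gene, with the match in capitals. In Pck2 and Got1 the match lies on the opposite strand and therefore reads as its reverse complement.
Asns, chr6:7693215-7693242, minus strand: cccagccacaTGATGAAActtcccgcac
Pycr1, chr11:120643834-120643861, minus strand: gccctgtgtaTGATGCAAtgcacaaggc
Pck2, chr14:55540153-55540180, plus strand: gccttcaaagTTACATCAgtatcttaca
Got1, chr19:43524690-43524717, minus strand: attgcattggTTGCATCAtacaagcctc
The first base of the match stood at -23 from the RefSeq start in Asns, at -103 in Pycr1 and in Pck2, and at -102 in Got1. The GENCODE annotation used for gene positions below has Asns reach to base 7693254 of chr6. By that annotation the Asns match lies inside the gene. The windows of Gpt2, Aldh18a1, Oat and Glul and both windows of Bcat1 held no match to these letters. A match is a description of the sequence and no binding was measured here.

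Osgep, the targeted gene, had 20.6, 58.6 and 21.8 CPM (counts scaled to the size of each library, after TMM) in shCtr 1, 2 and 3 and 4.28, 0.542 and 5.52 CPM in shOSGEP 1, 2 and 3. The groups did not overlap, and its log2 fold change (Log2FC, shOSGEP over shCtr) was -3.29 ± 0.876 (SE, n = 3 per group; exact permutation p = 0.1, the smallest that 3 against 3 allows). Its adjusted p-value was 1.00 in edgeR's quasi-likelihood test over 12669 genes and 0.0339 in DESeq2. Atf4 RNA was measured at 280, 245 and 263 CPM in the control libraries against 489, 1209 and 481 CPM in the knockdown libraries. It was past the study threshold defined below, with a Log2FC of 1.47 ± 0.50 and an unadjusted edgeR p of 0.0182 (adjusted p 1.00, exact permutation p = 0.1). Library totals ran from 18915587 to 29487384 counts. Both libraries of number 2 stood apart: shCtr 2 had a TMM factor of 0.690 against 1.04 to 1.14 in the other 5 libraries, and the 7 melanocyte markers summed to 3551 CPM in shOSGEP 2 against 15387 to 29599 CPM in the other 5 libraries. All 7 of those markers, from Mlana to Sox10, were detected in both groups. Of 10 markers of immune, epithelial, endothelial and fibroblast cells 5 were at 0 in all libraries of shCtr and 5 in all of shOSGEP, and their sum stayed between 2.46 and 7.52 CPM. The part of these markers in the values that follow was not tested. A smooth curve of GC content and transcript length took up 17.5 to 61.8% of the variance of a library around the gene means, with the highest value in shCtr 2. Values with offsets for it are given below for several of the enzymes, not for all. In bulk RNA, fewer cells of a type and less RNA per cell cannot be told apart.

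All 9 enzymes passed the filter on low counts. By sign, 7 of the 9 had a positive Log2FC, and Oat and Glul a negative one. The study's own threshold, an absolute Log2FC above 0.5 with an unadjusted p below 0.05, was passed by 2 of 9, Pck2 and Gpt2, both higher in shOSGEP, where 1.59% of the 12669 genes passed it in that direction. It was passed by none of the 9 in the lower direction, against 0.426% of all genes. The median Log2FC of the 9 was 0.57, beside a median of -0.03 over all genes tested. After adjustment over all genes none of the 9 passed 0.05 in edgeR (every adjusted p 1.00), and 0.0% of all genes did. An unadjusted p under 0.05 was found for 2 of the 9, against 256 of all 12669 genes. DESeq2 and limma-voom with sample quality weights also called none of the 9 after adjustment. Over all genes DESeq2 called 17 of 21821 and that limma-voom fit 3 of 12669. Leaving out shCtr 1, shCtr 3 or shOSGEP 2 left 0 of the 9 past the study threshold, whereas 4 passed it without shCtr 2 and 1, Pck2, without shOSGEP 1. In that order, 453 of 12941, 167 of 13199, 67 of 12972, 289 of 13072 and 207 of 12886 genes passed it in either direction.

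The libraries shared their replicate numbers. Same-numbered libraries correlated in their deviations from the group means at 0.811, 0.557 and 0.196, so the pairing was weak for number 3, where shCtr 3 correlated with shOSGEP 1 at 0.491. With the number as a block, 4 of 9 passed the study threshold, all higher in shOSGEP: Asns, Gpt2, Pycr1 and Pck2, against 2.32% of all genes in that direction. Adding offsets for GC content and transcript length to the block made it 5 of 9, Aldh18a1 being the further one, against 3.82% of all genes. Within each number the direction was the same for every enzyme: 7 of 9 were higher in shOSGEP and 2 of 9 lower in all 3 same-numbered comparisons, where 17.6% of all genes were higher and 17.2% lower in all 3. Over the 9 enzymes the median log2 ratio was 0.99 in number 1, 0.53 in number 2 and 0.40 in number 3, beside -0.03, 0.11 and -0.01 over all genes tested. Limma-voom with sample quality weights and the block, an analysis added after the data were seen, called 6 of 9 higher and 1 of 9 lower at an adjusted p below 0.05, against 6.73% and 4.34% of all genes. That fit had 2 residual degrees of freedom, borrowed 902.5 from the other genes and gave the libraries of number 2 weights of 0.112 and 0.113. It called 1403 genes where edgeR called 0, so these calls are doubtful and the 7 of 9 are not taken as significant.

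**Figure D1:**
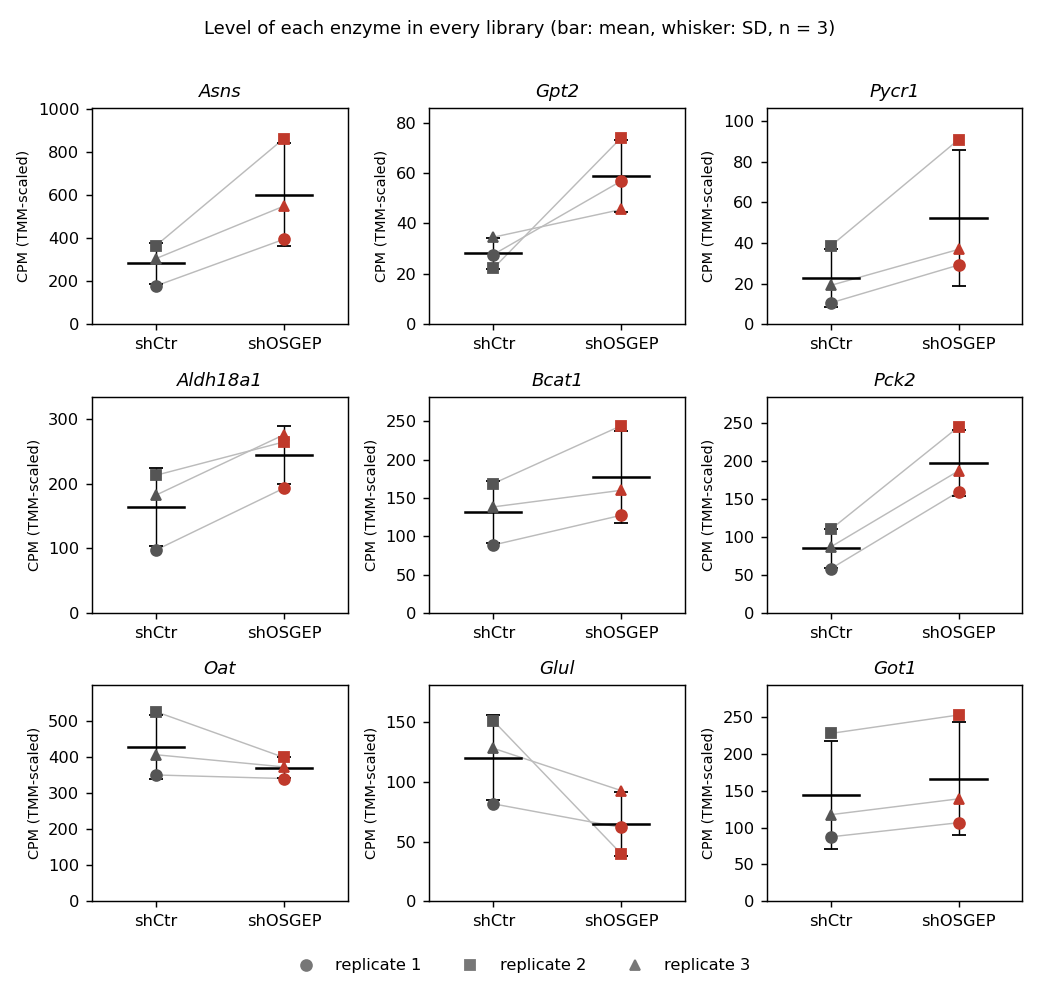
CPM of each of the 9 enzymes in every library (vertical axes, CPM after TMM scaling, from 0), with shCtr in grey and shOSGEP in red, the mean and SD (n = 3) in black, symbols for the replicate number and lines joining libraries of the same number. Asns, Gpt2 and Pck2 do not overlap between the groups, and every line falls for Oat and Glul and rises for the other 7.

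Asparagine synthetase was the most abundant of the members that were higher. Asns (ENSMUSG00000029752, chr6:7675169-7693254 on GRCm38, as for all genes here) had 179, 365 and 305 CPM in shCtr and 395, 862 and 549 CPM in shOSGEP. The lowest shOSGEP library lay just above the highest shCtr library, so the groups did not overlap, and the means of 283 ± 95.3 and 602 ± 238 CPM (SD, n = 3) differed 2.13-fold. The Log2FC was 1.09 ± 0.486 (SE) with an unadjusted edgeR p of 0.0544 (exact permutation p = 0.1), which missed the study threshold. With the block it was 1.08 ± 0.286 and passed that threshold. With GC and length offsets it was 0.83 ± 0.44 and missed it, and with those offsets and the block it was 0.90 ± 0.199 and passed it. Same-numbered libraries differed 2.21-, 2.36- and 1.80-fold. Without both libraries of number 2 the Log2FC was 0.97 ± 0.393, which missed it.

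Glutamine synthetase, which supplies the nitrogen donor that Asns uses, had a Log2FC of the opposite sign. Glul (ENSMUSG00000026473, chr1:153899944-153909723) had 81.5, 151 and 128 CPM in shCtr and 61.7, 39.8 and 92.6 CPM in shOSGEP. The groups overlapped, since shOSGEP 3 lay above shCtr 1. The Log2FC was -0.89 ± 0.465 with an unadjusted edgeR p of 0.0902 (exact permutation p = 0.2), and -0.92 ± 0.400 with the block, both short of the study threshold. In limma-voom with sample quality weights it was -0.71 ± 0.299 and past that threshold. The shOSGEP level was 0.758, 0.264 and 0.724 of the shCtr level in numbers 1, 2 and 3, and without both libraries of number 2 the Log2FC was -0.44 ± 0.367. Of the 31-base words of the Glul transcript 24.2% occurred in other annotated genes, mostly in the pseudogene Glns-ps1, so part of its reads could be assigned elsewhere.

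The ratio of Asns to Glul counts inside a library needs no scaling between libraries. It was 2.19, 2.42 and 2.39 in shCtr 1, 2 and 3 and 6.39, 21.7 and 5.93 in shOSGEP 1, 2 and 3. The 3 control values were nearly the same, and every shOSGEP value lay well above them. The log2 ratio was 1.22 ± 0.0777 in shCtr and 3.23 ± 1.05 in shOSGEP (SD, n = 3), a difference of 2.01, and of 1.43 without both libraries of number 2. The exact two-sided permutation p was 0.1, and 0.12 after Benjamini-Hochberg adjustment over 6 gene pairs compared in this way. The GC content of the transcripts was 47.7% for Asns and 49.2% for Glul. The pair was chosen after the values were seen.

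On the proline route, Aldh18a1 and Pycr1 were higher in every same-numbered comparison. Aldh18a1 (ENSMUSG00000025007, chr19:40550257-40588463), which reduces glutamate in the first step, had 97.5, 213 and 183 CPM in shCtr and 193, 265 and 276 CPM in shOSGEP. Only shOSGEP 1 fell within the shCtr range. The Log2FC was 0.57 ± 0.436 with an unadjusted edgeR p of 0.223 (exact permutation p = 0.2). In the fit with the block and the GC and length offsets it was 0.74 and past the study threshold.

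Pycr1 (ENSMUSG00000025140, chr11:120635712-120643769), the mitochondrial reductase of the last step, had 10.5, 38.4 and 19.1 CPM in shCtr and 29.1, 90.8 and 36.8 CPM in shOSGEP. Both shOSGEP 1 and shOSGEP 3 lay under shCtr 2, so the groups overlapped, while each shOSGEP library was 1.92 to 2.76 times its same-numbered control. The Log2FC was 1.20 ± 0.640 with an unadjusted edgeR p of 0.0957 (exact permutation p = 0.3), and 1.22 ± 0.285 with the block, past the study threshold. With GC and length offsets and no block it was 1.395 ± 0.48, also past it. Pycr1 also passed it without both libraries of number 2 (1.15 ± 0.379), but the Log2FC was 0.57 ± 0.608 when shOSGEP 2 alone was left out.

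Oat (ENSMUSG00000030934, chr7:132557478-132576398), which feeds the same intermediate from ornithine, had 350, 525 and 406 CPM in shCtr and 340, 398 and 372 CPM in shOSGEP, with overlapping groups. The Log2FC was -0.21 ± 0.387 with an unadjusted edgeR p of 0.610 (exact permutation p = 0.4). With GC and length offsets it was -0.47 ± 0.354, short of the study threshold. The count ratio of Aldh18a1 to Oat, the entries to this intermediate from glutamate and from ornithine, was 0.279, 0.407 and 0.450 in shCtr and 0.569, 0.666 and 0.743 in shOSGEP. Those groups did not overlap, and the log2 ratio differed by 0.82, or by 0.88 without both libraries of number 2 (exact permutation p = 0.1, adjusted 0.12). This pair was also chosen after the values were seen, and the transcripts differ in GC content, 53.7% for Aldh18a1 and 47.3% for Oat.

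Among the transaminases Gpt2 was the one past the study threshold. Gpt2 (ENSMUSG00000031700, chr8:85492576-85527560), the mitochondrial alanine transaminase, had 27.7, 22.2 and 34.5 CPM in shCtr and 56.8, 73.9 and 45.5 CPM in shOSGEP. The groups did not overlap. The Log2FC was 1.06 ± 0.413 with an unadjusted edgeR p of 0.0321 (exact permutation p = 0.1). It was 1.06 ± 0.358 with the block and 0.72 ± 0.283 without both libraries of number 2, past the study threshold in each. It missed that threshold when shCtr 1, shCtr 3, shOSGEP 1 or shOSGEP 2 was left out, with Log2FC values from 0.87 to 1.24. Same-numbered libraries differed 2.05-, 3.33- and 1.32-fold, the smallest difference being that of number 3.

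Bcat1 (ENSMUSG00000030268, chr6:144993835-145076184), the cytosolic branched-chain transaminase, had 88.5, 169 and 138 CPM in shCtr and 127, 244 and 160 CPM in shOSGEP. The groups overlapped broadly, with a Log2FC of 0.43 ± 0.441 (unadjusted edgeR p of 0.361, exact permutation p = 0.5), and with the GC and length offsets it was 0.02. Got1 (ENSMUSG00000025190, chr19:43499752-43524605), the cytosolic aspartate transaminase, had 87.4, 227 and 117 CPM in shCtr and 106, 252 and 139 CPM in shOSGEP. Each shOSGEP library was 1.11 to 1.22 times its same-numbered control, while the libraries within a group differed more than that. The Log2FC of Got1 was 0.20 ± 0.522 (unadjusted edgeR p of 0.706, exact permutation p = 0.6), and it turned negative when shCtr 1 or shOSGEP 2 was left out.

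The Log2FC values of Pck2 and Pycr1 were the highest of the 9 without the block and close together, and Pycr1 had the higher one under several alternatives. Pck2 (ENSMUSG00000040618, chr14:55540266-55551242), which turns mitochondrial oxaloacetate into phosphoenolpyruvate, had 57.9, 110 and 86.6 CPM in shCtr and 159, 244 and 187 CPM in shOSGEP. Every shOSGEP library lay above every shCtr library, and the means of 84.7 ± 25.9 and 197 ± 43.5 CPM (SD, n = 3) differed 2.32-fold. The Log2FC was 1.22 ± 0.419 with an unadjusted edgeR p of 0.0192 (exact permutation p = 0.1). It was 1.24 ± 0.264 with the block and 1.26 ± 0.327 without both libraries of number 2, again past the study threshold. It missed that threshold without shCtr 1, shCtr 3 or shOSGEP 2, at Log2FC values of 1.01, 1.23 and 1.05. Same-numbered libraries differed 2.75-, 2.23- and 2.15-fold.

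Non-overlapping groups were thus found for 3 of the 9 enzymes, Asns, Gpt2 and Pck2, all higher in shOSGEP, where 3.49% of all genes were higher without overlap. None of the 9 was lower without overlap, against 2.87% of all genes.

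**Figure D2:**
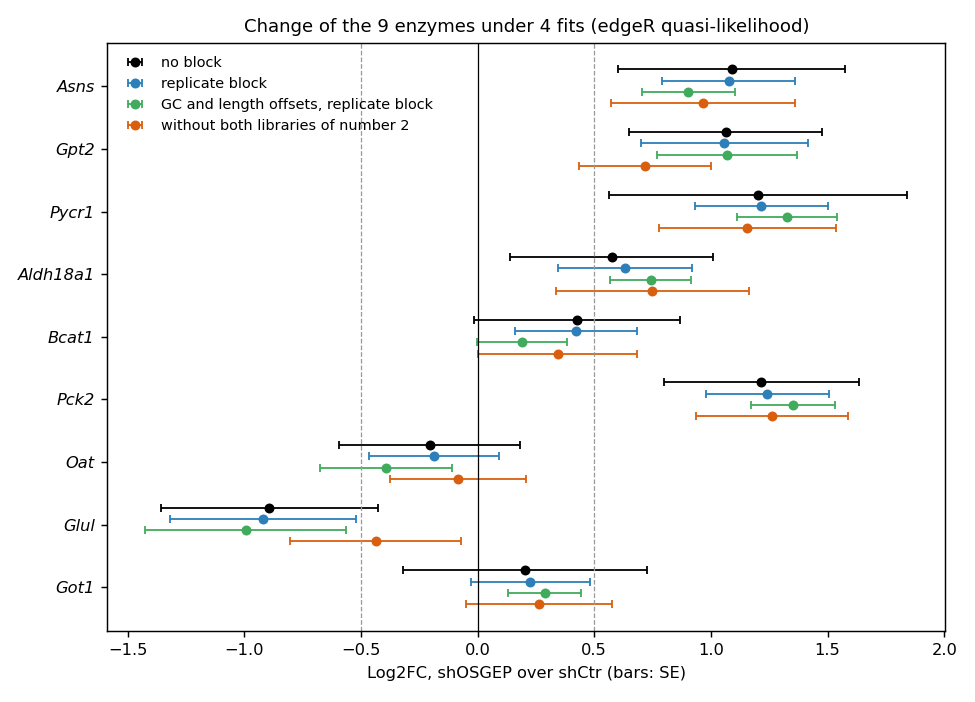
Log2FC (horizontal axis, shOSGEP over shCtr) of the 9 enzymes, with bars for the SE, in 4 edgeR fits: without block, with the replicate number as a block, with GC and length offsets and the block, and without both libraries of number 2. Dashed lines mark an absolute Log2FC of 0.5. Pck2, Pycr1, Asns, Gpt2 and Aldh18a1 stay above 0.5 in each of these fits, and the value of Glul moves from -0.89 to -0.44 when the libraries of number 2 are left out.

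Several of the enzymes have a paralogue in another compartment, and the tested paralogues all had negative values. Gpt, the cytosolic alanine transaminase, had a Log2FC of -0.88 ± 0.626. Pycr3, a cytosolic pyrroline-5-carboxylate reductase, stood at -0.83 ± 0.767. Bcat2, the mitochondrial branched-chain transaminase, stood at -0.60 ± 0.606 and Got2, the mitochondrial aspartate transaminase, at -0.72 ± 0.565. None of these 4 passed the study threshold, and each value turned positive without both libraries of number 2, to between 0.03 and 0.26. With GC and length offsets they were nearer 0, at -0.34 for Gpt, -0.26 for Pycr3, -0.16 for Bcat2 and -0.47 for Got2. Pck1, the cytosolic counterpart of Pck2, had 0 counts in all 6 libraries, which allows at most 0.1475 CPM in any of them.

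Set against its paralogue inside the same library, each member had the higher ratio in shOSGEP in all 3 same-numbered comparisons. The ratio of Pycr1 to Pycr3 counts was 0.213, 0.120 and 0.293 in shCtr and 0.748, 0.782 and 0.409 in shOSGEP. The groups did not overlap, and the log2 difference was 1.67, or 1.15 without both libraries of number 2. The paralogue ratios too were added after the data were seen.

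The other 3 ratios depended more on number 2. The ratio of Gpt2 to Gpt counts was 0.808, 0.143 and 0.791 in shCtr and 1.46, 2.27 and 0.840 in shOSGEP, a log2 difference of 1.64 that was 0.47 without number 2. For Bcat1 to Bcat2 the difference was 0.82 and then 0.39, and for Got1 to Got2 0.81 and then 0.26. The Got1 to Got2 ratios overlapped between the groups (exact permutation p = 0.2), and those of the other 3 paralogue pairs did not (exact permutation p = 0.1, adjusted 0.12 over the 6 pairs). For Bcat1 to Bcat2 the groups were barely apart, at 1.97 in shCtr 3 and 2.01 in shOSGEP 3. How often the ratios of other gene pairs do not overlap was not counted. The tested paralogues had a GC content of 54.5 to 58.3% and the 9 enzymes one of 47.2 to 53.8%. With GC and length offsets and the block the Log2FC was 0.19 for Bcat1 and -0.16 for Bcat2, 1.07 for Gpt2 and -0.34 for Gpt, 1.33 for Pycr1 and -0.22 for Pycr3, and 0.29 for Got1 and -0.44 for Got2. Of the 31-base words of Got2 57.0% occurred in other annotated genes, which leaves its counts uncertain. For Bcat2 the share was 12.6%, in 0610005C13Rik, a gene annotated antisense to it.

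**Figure D3:**
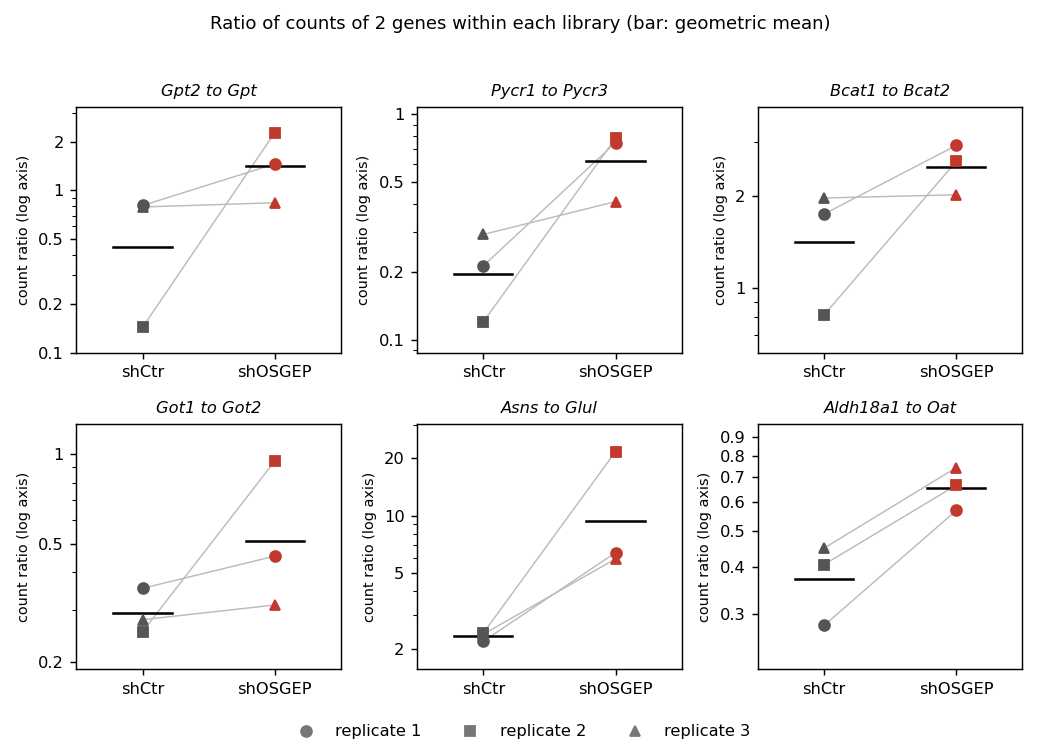
Ratio of the estimated counts of 2 genes within each library (vertical axes, logarithmic) for 4 pairs of a member and its paralogue and 2 pairs of members, with shCtr in grey, shOSGEP in red, symbols for the replicate number and a bar for the geometric mean of 3 libraries. Each line between same-numbered libraries rises, and only Got1 to Got2 overlaps between the groups.

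The enzymes and carriers around the 9 were followed as lists. Of 35 such genes 29 were tested. None passed the study threshold in either direction, 11 had a positive and 18 a negative Log2FC, and the median was -0.19. Of all 12669 genes 256 passed that threshold, 5998 had a positive and 6671 a negative Log2FC, and the median was -0.03. The other 6 of the 35 were too low to test, among them Arg1 and Arg2, the arginases that would supply ornithine, and the proline-oxidising Prodh2.

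Of 6 tested genes around asparagine and aspartate, 2 were higher and 4 lower by sign, with none past the threshold. Asrgl1, which degrades asparagine, had a Log2FC of 0.73 ± 0.568. The mitochondrial aspartate-glutamate carriers had values of opposite sign. Slc25a12 had 46.1, 54.3 and 53.1 CPM in shCtr and 57.4, 96.8 and 61.3 CPM in shOSGEP. Slc25a13 had 144, 166 and 183 CPM in shCtr and 109, 90.1 and 125 CPM in shOSGEP. Neither carrier overlapped between the groups, which made 1 of the 29 tested surrounding genes higher and 1 lower without overlap, near the 3.49% and 2.87% of all genes. Their Log2FC values were 0.49 ± 0.400 and -0.60 ± 0.368, short of the study threshold. Slc25a13 passed it in the fits with GC and length offsets (-0.83 ± 0.305 with the block) and in limma-voom with sample quality weights (-0.61 ± 0.230). These carriers, and the other genes of the lists given here by value, were singled out after their values were seen.

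Around glutamine and glutamate 7 genes were tested, 3 with a positive and 4 with a negative Log2FC. Values ran from -0.63 for Cad, which opens pyrimidine synthesis with glutamine, to 0.36 for the mitochondrial glutamate carrier Slc25a22, and none passed the threshold. The nitrogen-donor users Ppat, Gfpt1 and Ctps had Log2FC values of -0.36, 0.03 and -0.09.

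Of 5 tested genes around proline and ornithine, 4 had a negative Log2FC and 1 a positive one, with a median of -0.42. Prodh and Aldh4a1, the mitochondrial enzymes that oxidise proline back to glutamate, had values of -0.47 ± 0.472 and -0.42 ± 0.541. Neither passed the threshold. Of the 4 tested genes around alanine and pyruvate, the subunits of the mitochondrial pyruvate carrier, Mpc1 and Mpc2, had 0.80 ± 0.550 and 0.48 ± 0.571. The highest library was shOSGEP 2, with 217 CPM for Mpc1 against 57.7 to 81.5 CPM in the other 5 libraries. Of the 7 genes that degrade branched-chain amino acids or regulate that route, as the inhibitory kinase Bckdk does, 3 were positive and 4 negative by sign, and none passed the threshold.

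**Figure D4:**
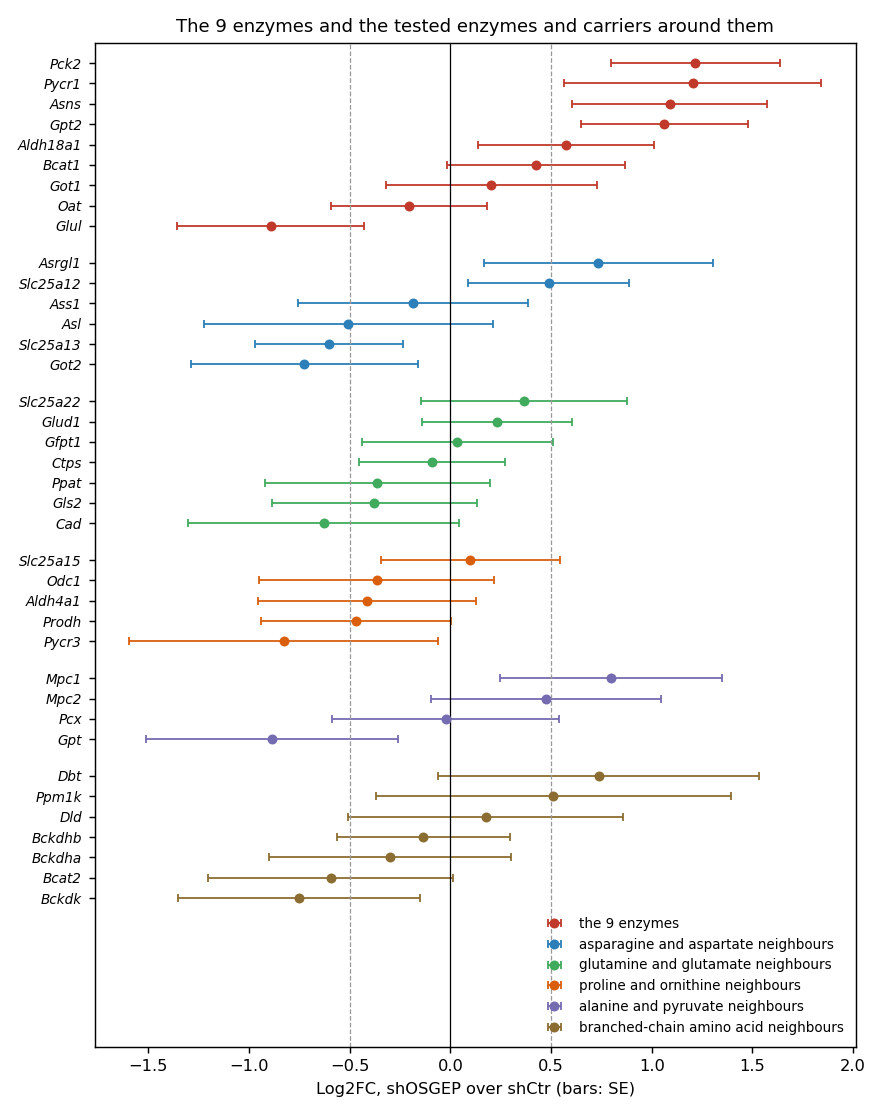
Log2FC (horizontal axis, shOSGEP over shCtr) with bars for the SE for the 9 enzymes and the 29 tested genes of the 5 surrounding lists, edgeR fit without block. Of the 9 enzymes 4 lie above 1 and none of the surrounding genes does, and the surrounding genes run from -0.88 to 0.80.

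Levels were compared between genes as CPM per kilobase of the main transcript. In shCtr Oat came first at 198 ± 41.6 CPM per kilobase (SD, n = 3), followed by Asns at 140 ± 47.3, Got1 at 70.0 ± 35.8, Aldh18a1 at 46.6 ± 17.0 and Glul at 43.0 ± 12.7. Pck2 followed at 24.9 ± 7.61, Bcat1 at 16.8 ± 5.16, Pycr1 at 7.79 ± 4.90 and Gpt2 at 7.73 ± 1.70. The ranges of each pair of neighbours in that order overlapped. In shOSGEP Asns came first at 299 ± 118 CPM per kilobase, and its lowest library (196) lay above the highest of Oat (185). Pck2 (57.9 ± 12.8) stood above Glul (23.2 ± 9.50) in shOSGEP without overlap and below it in shCtr with overlap.

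Genes whose pattern over the 6 libraries was most like that of Asns were ranked by the root mean square difference of log2 CPM, centred on the mean of each gene. Of 12668 other genes Pck2 had rank 4, at 0.177. Those ahead of it were D630003M21Rik, Mrc2 and Pacsin1, with at most 5.11 CPM in any library. The next was Wfs1, an endoplasmic reticulum membrane protein, at 0.199, with 15.6, 23.3 and 19.3 CPM in shCtr and 34.2, 70.1 and 38.1 CPM in shOSGEP. The other members lay further away. Aldh18a1 had rank 51 (0.322), Bcat1 rank 56 (0.334) and Pycr1 rank 58 (0.335). Gpt2 had rank 341 (0.473), Got1 rank 344 (0.474), Oat rank 2748 (0.705) and Glul rank 9326 (1.17).

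KEOPS modifies the tRNAs of codons that start with A, so the share of such codons was read from the coding sequences. Among the 9 enzymes it ran from 22.6% in Pck2 to 27.6% in Oat, with a median of 25.6%, beside a median of 26.9% and quartiles of 23.6% and 29.8% over 11534 tested genes. Of the 9, 7 lay below that median, and the exceptions were Oat and Glul. No relation between codons and the Log2FC was tested.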

How the data were processed

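Reads were trimmed (TrimGalore), aligned to GRCm38 (STAR 2.6.1d) and quantified (Salmon 1.4.0) by the authors, who deposited estimated counts per Ensembl gene, 1 column per library, without normalization; the annotation release is not given in the sources used here. The library kit does not mark strand. Strand therefore cannot separate reads of Glul, Bcat1, Pck2 and the paralogues Bcat2 and Got2 from those of genes annotated antisense to them. In the word comparison made for Glul, 0 of 3370 words of Pck2 and 3.04% of those of Bcat1 occurred in other annotated genes. The deposited estimated counts were already whole numbers. They were filtered with filterByExpr (minimum count 10), scaled by TMM and fitted by edgeR 4.0.16 (quasi-likelihood F test of shOSGEP against shCtr, two-sided, R 4.3.3), with Benjamini-Hochberg adjustment over 12669 genes. The SE is the absolute Log2FC divided by the square root of F. CPM is the count scaled to the library size after TMM, and log2 CPM used a prior count of 2. Scripts were tested on simulated data with less spread between libraries than these, so that test does not cover the spread found here. The replicates are described as separate infections. Their library names share an ending within each replicate number, and the ending of number 1 has another form than those of 2 and 3. What the endings stand for is not given. A 0 was read as at most 3 counts.

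The members and lists were chosen with earlier results of these data known. The rule named the 9 enzymes, Osgep, Atf4, the paralogues, any surrounding gene past the study threshold and the 5 genes nearest to Asns. Other surrounding genes given by value were chosen after their values were seen. Some surrounding genes are not reported here. Pycr3 is listed as Pycrl in the table. Transcript length, GC content, codons and positions came from GENCODE M21 (GRCm38, the transcript with the longest coding sequence) and promoter sequences from RefSeq (GRCm38.p6). Same-numbered libraries shared an ending of their names and all correlated over 0.1 in their deviations from the group means, so the number was treated as a pairing. That correlation alone does not single out the pairs. It was also over 0.1 for shCtr 3 with shOSGEP 1 (0.491) and shCtr 2 with shOSGEP 3 (0.138). Alternatives were DESeq2 1.42.0, limma 3.58.1 (voom with sample quality weights), other scalings and filters, the replicate block, GC and length offsets (splines with 5 degrees of freedom) and leaving out libraries.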

Additional observations from a re-analysis of the deposited data

How the results depend on the processing

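The number of enzymes past the study threshold, 2 of 9, was 2 with DESeq2 and RLE scaling, 3 with upper-quartile scaling, with at least 10 counts in every library and without both libraries of number 2, 1 without a filter, 4 with the replicate block, 4 with GC and length offsets, 5 with both, 5 with limma-voom with sample quality weights (Asns, Gpt2, Pycr1 and Pck2 higher, Glul lower), 5 when that fit also had the block (Aldh18a1 in place of Glul, all higher), and 0 to 4 when each library was left out in turn. The number at an adjusted p under 0.05 (and under 0.1) was 0 except in limma-voom with sample quality weights and the replicate block, an alternative chosen after seeing the data, where it was 7 (doubtful, since that fit called 1403 genes on 2 residual degrees of freedom). The median Log2FC of the 9 stayed between 0.31 and 0.86. The number of all genes past the study threshold, in either direction, also differed between the fits. It was 256 of 12669 in the main fit, 373 with the replicate block, 669 of 12658 with GC and length offsets and 846 with both. Limma-voom with sample quality weights gave 560, and 1442 with the block. RLE scaling gave 256 of 12669, upper-quartile scaling 287 of 12669 and DESeq2 470 of 21821. The number was 599 of 21821 without a filter and 208 of 11376 with at least 10 counts in every library. Without both libraries of number 2 it was 194 of 12857. Leaving out each library in turn gave from 67 of 12972 (without shOSGEP 2) to 453 of 12941 (without shCtr 1). The 1 surrounding gene past the threshold with GC and length offsets, with those offsets and the block, and with limma-voom with sample quality weights was Slc25a13. The Log2FC of Osgep was -3.31 with DESeq2 and -2.23 with limma-voom and the block, past an adjusted p of 0.05 in these fits only, and -3.34 with the replicate block alone.

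Leaving out each library in turn moved the Log2FC of Got1 between -0.20 and 0.70 (negative without shCtr 1 and without shOSGEP 2), of Gpt between -1.23 and 0.11, of Pycr3 between -1.24 and 0.51 and of Bcat2 between -0.93 and 0.26 (these 3 positive without shCtr 2 only). Without both libraries of number 2 Gpt was 0.26, Pycr3 0.17, Bcat2 0.027 and Got2 0.031. In limma-voom with sample quality weights Gpt was 0.091 and Pycr3 0.10, and with the block added Gpt was 0.18. No sign of the other 8 enzymes changed in any of the 17 alternatives. Pycr1 had a higher Log2FC than Pck2 with GC and length offsets, with upper-quartile scaling (1.36 against 1.35) and without shCtr 2, shOSGEP 1 or shOSGEP 3, and Gpt2 did without shCtr 1 (1.05 against 1.01) and without shCtr 3 (1.24 against 1.23). Upper-quartile scaling moved the median of all genes from -0.03 to 0.07. In edgeR without offsets the block changed the call of Asns and Pycr1 alone. The cause of these differences was not tested.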
